A study of Mus musculus with 16 samples.

Results

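The enzymes that write, copy and remove DNA methylation were followed in mouse embryonic stem cells (ESCs) that had lost Dnmt1 alone or Dnmt1 together with Dicer1. The set was chosen by name and holds 9 of the 26127 genes listed: Dnmt1 and Uhrf1, which copy methylation at replication, Dnmt3a, Dnmt3b and their cofactor Dnmt3l, which place it anew, Tet1, Tet2 and Tet3, which oxidise it, and Tdg, which excises the oxidised bases. Each of the 9 symbols stood for 1 row, and all 9 passed the filter on low values. The study sequenced stranded total RNA, without ribosomal RNA, in 16 libraries. The labels give 8 libraries as wildtype (WT), 4 as Dnmt1-/- (Dnmt1 KO) and 4 as Dicer/Dnmt1 -/- (Dicer/Dnmt1 KO), all in E14 ESCs, each with a number and with the letter A or B, whose meaning is not given. The methods of the study describe Dnmt1 loxP/loxP ESCs of strain C57BL/6 in which Cre deletes Dnmt1 after tamoxifen. From them CRISPR/Cas9 gave Dicer KO lines and also conditional Dicer/Dnmt1 lines, in which tamoxifen deletes both genes. The study reports total RNA-seq of both kinds, and the labels do not say which was used here. The origin of these libraries is therefore uncertain, and so is whether Dicer1 loss was acute or long-standing. The CRISPR/Cas9 lines were grown from single cells, and a line from a single cell is 1 clone. Cells were cultured in serum with LIF, with or without feeder cells. The time after deletion is not given for these libraries.

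Most methylated cytosines of mammals lie in CpG dinucleotides. UHRF1 recognises the hemimethylated sites that replication leaves and brings in DNMT1, which restores the mark on the new strand. DNMT3A and DNMT3B methylate sites that carry no mark, and DNMT3L, which has no activity of its own, stimulates both and is abundant in ESCs and germ cells. TET proteins convert methylcytosine stepwise to hydroxymethyl-, formyl- and carboxylcytosine, of which TDG removes the last pair so that base excision repair can restore a plain cytosine. In Dicer-deficient ESCs, which lack microRNAs of the miR-290 family, the pocket protein RBL2 is known to be raised and to repress Dnmt3 genes.

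Of the 9 members, Dnmt3l and Dnmt3b differed most between the knockouts (-1.34 and -0.99 on the log2 scale), while Dnmt3a (-0.16) was not called. The promoters of these Dnmt3 genes are shown because they differ in how many CpGs they carry. RefSeq windows of 300 bases, from 250 before to 50 after a gene start on build GRCm38.p6, covered all 9 members with 16 starts. The windows of a chromosome that holds no member were left out. The median over the 32851 windows used was 7 CpGs, and the 90th percentile was 31. For each Dnmt3 gene the window richest in CpGs is printed, with every CpG in capitals; Dnmt3a (chr12:3806910-3807209, plus strand) held 47, Dnmt3b (chr2:153649199-153649498, plus strand) held 30, and Dnmt3l (chr10:78042037-78042336, plus strand) held 6.
Dnmt3a: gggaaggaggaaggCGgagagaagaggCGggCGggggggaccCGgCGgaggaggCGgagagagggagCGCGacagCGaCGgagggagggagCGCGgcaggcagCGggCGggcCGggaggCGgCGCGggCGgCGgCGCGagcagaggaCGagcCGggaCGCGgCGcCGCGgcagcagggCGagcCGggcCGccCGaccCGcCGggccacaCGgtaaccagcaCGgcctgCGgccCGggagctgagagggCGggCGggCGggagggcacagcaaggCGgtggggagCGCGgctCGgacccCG
Dnmt3b: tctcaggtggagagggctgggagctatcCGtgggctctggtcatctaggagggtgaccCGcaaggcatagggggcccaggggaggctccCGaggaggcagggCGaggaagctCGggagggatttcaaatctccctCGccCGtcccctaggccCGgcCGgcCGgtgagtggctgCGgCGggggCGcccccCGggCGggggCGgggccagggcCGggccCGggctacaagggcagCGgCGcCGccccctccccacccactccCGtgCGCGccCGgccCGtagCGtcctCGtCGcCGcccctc
Dnmt3l: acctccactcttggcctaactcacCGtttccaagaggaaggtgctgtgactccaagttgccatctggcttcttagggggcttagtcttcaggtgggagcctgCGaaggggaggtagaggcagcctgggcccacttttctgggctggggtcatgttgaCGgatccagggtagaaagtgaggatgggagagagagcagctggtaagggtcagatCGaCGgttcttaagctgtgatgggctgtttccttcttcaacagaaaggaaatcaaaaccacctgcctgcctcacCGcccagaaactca

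Dnmt3l therefore stood below the median of the windows used and the others far above it. The other 2 starts of Dnmt3l held 4 and 3 CpGs. Among the remaining members, the window of Tet2 was the richest with 57 CpGs, a number that 0.152% of the windows used reach, and Tdg held 26, Tet3 22 and Tet1 17. Dnmt1 and Uhrf1 each had 1 start with 33 CpGs. The words TTTCCCGC, TTTCGCGC, TTTGCCGC and TTTGGCGC, written forms of the site of E2F factors, were searched on both strands, and only these Dnmt1 and Uhrf1 windows held any, with 2 and 1 matches. Of the windows used, 2.26% hold such a word.

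The microRNAs that Dicer makes in ESCs include those of the miR-290 family. Of the 5 mature forms with seed AAGUGCU in the RefSeq table, 3 from the family cluster on chromosome 7 are given. Their seed, bases 2 to 8, is in capitals. Their own levels were not measured in these libraries.
mmu-miR-291a-3p: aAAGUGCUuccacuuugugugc
mmu-miR-294-3p: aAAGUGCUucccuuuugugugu
mmu-miR-295-3p: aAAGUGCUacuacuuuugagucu

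The complement of this seed, AGCACTT, was searched on the sense strand of the 3′ untranslated region of each gene's longest coding transcript (GENCODE M1, build NCBIM37). Tet3 held 3 matches, Tet1 2 and Tet2 1, and the other 6 members held none. The first match of each TET gene and that of Rbl2 are shown with the match in capitals, at chr6:83317832-83317851 (Tet3, minus strand), chr10:62274628-62274647 (Tet1, minus strand), chr3:133128873-133128892 (Tet2, minus strand) and chr8:93647722-93647741 (Rbl2, plus strand).
Tet3: cttccccAGCACTTtgaaga
Tet1: tttaaaaAGCACTTtctact
Tet2: ttagaaaAGCACTTtgccta
Rbl2: tcaataaAGCACTTataaat

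These matches are a description and no test of repression, since the regions of the TET genes are long. The word occurred in 16.1% of 12325 tested genes, in 57.3% of those with a region of about the length of Tet3, in 58.7% for Tet1, in 30.9% for Tet2 and in 16.1% for Rbl2. Dnmt3a, whose region of 6696 bases is nearly as long as that of Tet1, held none, beside 61.0% of genes of like length.

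The libraries held 31.5 M to 52.5 M reads, and the 9 members held between 77 reads (Tet3) and 19822 reads (Tet1) in a library. The libraries labelled WT 4A and WT 4B stood apart from the other WT libraries in the gene that defines the groups: their Dnmt1 level was 26.4% of the mean of WT 1 to 3, beside 11.3% in Dnmt1 KO. In the same libraries Tet3 was at 35.9%, Tet1 at 56.2% and Dicer1 at 57.5% of WT 1 to 3. The members and the regulators of Dnmt3 genes are therefore given against WT with and without these libraries. The other lists are given by their counts and by named genes, against all WT libraries with those labelled WT 4 included. All 9 pluripotency markers listed, Pou5f1, Sox2 and Nanog among them, were present in every library, with a summed level of 1280 to 2273 RPM (reads per 1 M reads). Of these, 3 fell in Dnmt1 KO, Nanog by 0.64 and Sox2 by 0.67 on the log2 scale among them. Against WT, Dicer/Dnmt1 KO had 1 that fell, and between the knockouts 3 rose and 1 fell. Over all genes 17.5% and 30.1% were lower against WT, and 16.9% were higher and 19.4% lower between the knockouts. The 7 markers of the primed state summed to 92.7 to 115 RPM in WT, 96.3 to 123 RPM in Dnmt1 KO and 47.0 to 51.5 RPM in Dicer/Dnmt1 KO. Dusp6 alone held 61.4 to 71.9 RPM in WT, so the sums mostly follow that gene. Of 6 tested, 3 rose and 1 fell in Dnmt1 KO, beside 23.5% higher and 17.5% lower over all genes. Otx2 was the one that fell, from a mean of 14.7 RPM in WT to 3.02 RPM. The 10 feeder fibroblast markers summed to 39.8 to 73.8 RPM in WT, 87.1 to 109 RPM in Dnmt1 KO and 91.3 to 158 RPM in Dicer/Dnmt1 KO, with Lum under 3 reads in 7 of 8, 2 of 4 and 4 of 4 libraries. The 7 primitive endoderm markers summed to 12.1 to 21.6, 41.6 to 56.0 and 20.8 to 28.4 RPM. All 7 rose in Dnmt1 KO, beside 23.5% of all genes called higher. The part of these cells and states in any result below was not tested.

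Levels between members can be compared per kilobase of exon only. In WT the order by median RPM per kb was Dnmt3l (35.2), Dnmt1 (34.0), Uhrf1 (31.2), Tet1 (22.7), Dnmt3b (15.0), Tet2 (12.5), Tdg (9.28), Dnmt3a (2.31) and Tet3 (0.580). The ranges of neighbours overlapped from Dnmt3l down to Tet2, and those of Tet2, Tdg, Dnmt3a and Tet3 did not overlap. In Dnmt1 KO, Dnmt3l led at 75.7, above every library of Uhrf1 (42.6), while Dnmt1 had dropped to 4.00, next to Dnmt3a (3.49), which it overlapped. In Dicer/Dnmt1 KO, Uhrf1 (32.2), Tet1 (31.1) and Dnmt3l (30.1) overlapped at the top. With the length of the longest transcript in place of all exons, Dnmt3l led in all 3 groups, and Dnmt3a came above Dnmt1 in both knockouts. Tdg then came above Tet2 in WT (14.2 and 12.5, with overlap) and in Dnmt1 KO (14.8 and 11.1, without), but not in Dicer/Dnmt1 KO. Those orders thus rest on the length used, and the shares and ratios below use all exons.

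**Figure D1:**
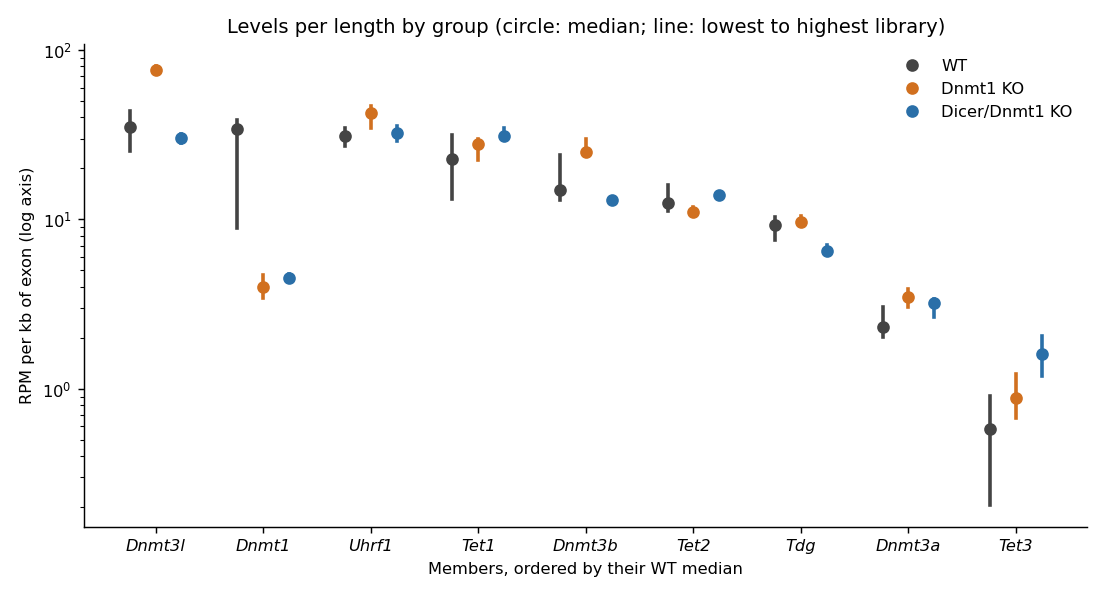
RPM per kb of exon (log axis) of the 9 members, ordered by their WT median, with the median (circle) and the lowest to highest library (line) of each group (WT n = 8, knockouts n = 4 each). Dnmt1 moves from 34.0 to 4.00 and 4.53, Dnmt3l stands at 75.7 in Dnmt1 KO, and Tet3 is the lowest member in every group.

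Within a library these levels can be set against each other. Dnmt1 supplied 37.2% to 71.1% of the summed RPM per kb of the 3 catalytic methyltransferases Dnmt1, Dnmt3a and Dnmt3b in WT, 11.2% to 12.5% in Dnmt1 KO and 20.6% to 22.6% in Dicer/Dnmt1 KO. Dnmt3b supplied medians of 34.8%, 77.6% and 62.9%. The transcripts that remained were thus mostly those of Dnmt3b in both knockouts, with a summed level of 30.6 to 38.4 RPM per kb in Dnmt1 KO and 19.7 to 21.4 in Dicer/Dnmt1 KO. The ratio of Dnmt3b to Dnmt3a was 5.65 to 8.92 in WT, 6.90 to 7.91 in Dnmt1 KO and 3.84 to 4.78 in Dicer/Dnmt1 KO, which lay below every other library. Among the TET genes Tet1 supplied most in every group (medians 63.8%, 69.1% and 67.0%) and Tet3 least (0.811% to 2.26%, 1.72% to 2.89% and 2.59% to 4.01%).

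Dnmt1 (chr9:20711650-20757317, minus strand, build NCBIM37, 39 exons) is the deleted gene and was examined first. Its log2 RPM in WT had a lowest value of 5.55, a median of 7.48 and a highest of 7.66. In Dnmt1 KO the libraries 1A, 1B, 2A and 2B held 4.35, 4.17, 4.63 and 4.44, and in Dicer/Dnmt1 KO 4.49, 4.62, 4.53 and 4.64. Every KO library lay below every WT library, also below those labelled WT 4. Dnmt1 fell by 2.66 ± 0.35 (SE) on the log2 scale in Dnmt1 KO (limma, adjusted p = 1.18e-05) and by 2.49 ± 0.35 in Dicer/Dnmt1 KO (adjusted p = 1.06e-05). Without the libraries labelled WT 4 the falls were 3.14 and 2.97. The gene-wide value counts reads of all exons, also those outside the deleted part, and cells that kept the gene cannot be told apart from transcripts that lack the deleted part. The knockouts differed from each other by 0.17, with a 95% interval of -0.68 to 1.02. That interval rests on the shared error, which WT enters, and does not measure the spread of the knockouts alone. The SD of Dnmt1 in log2 RPM was 0.89 (WT), 0.19 (Dnmt1 KO) and 0.07 (Dicer/Dnmt1 KO). The difference stayed uncalled under all 42 alternatives (lowest adjusted p = 0.0620). Dicer1, the other targeted gene, fell in Dicer/Dnmt1 KO by 1.40 ± 0.17 against WT (adjusted p = 2.81e-06), while its difference in Dnmt1 KO was 0.19 ± 0.17 (adjusted p = 0.393). Without the libraries labelled WT 4 these values were -1.60 and -0.0060 for Dicer1.

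Of the 9 members, 5 rose and 1 fell in Dnmt1 KO against WT, beside 41.0% of all 12892 tested genes called (23.5% higher and 17.5% lower). Dnmt1 was the one that fell, and the change of the others was in the genes of maintenance and de novo methylation and in Tet3. In Dicer/Dnmt1 KO against WT 3 rose (Dnmt3a, Tet1 and Tet3) and 2 fell (Dnmt1 and Tdg), beside 61.9% of all genes (31.9% higher and 30.1% lower). Between the knockouts, with Dicer/Dnmt1 KO set against Dnmt1 KO, 1 rose (Tet2) and 4 fell (Uhrf1, Dnmt3b, Dnmt3l and Tdg), beside 36.3% of all genes (16.9% higher and 19.4% lower). The members' median log2 fold changes were 0.41, 0.05 and -0.16, and those of all tested genes 0.04, 0.02 and -0.01. Both comparisons against WT share the WT libraries. In bulk RNA a change in the share of cells and a change of RNA per cell cannot be told apart.

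**Figure D2:**
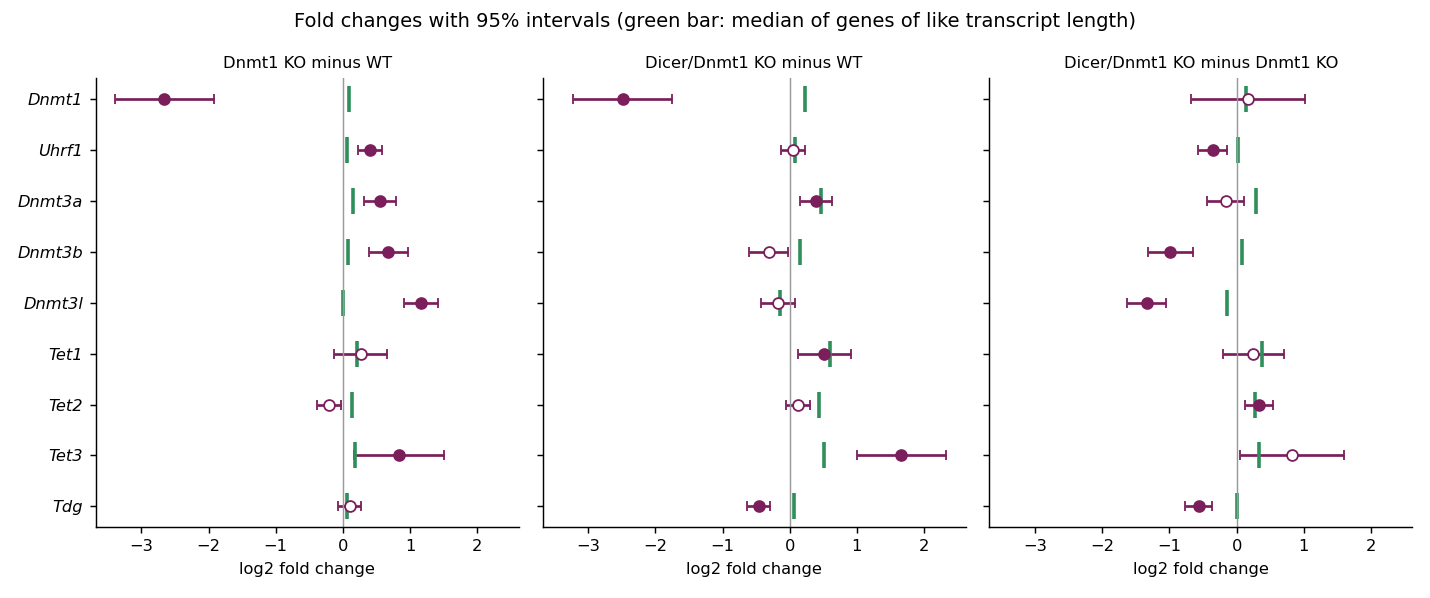
Log2 fold changes of the 9 members from the limma fit in the 3 comparisons, with 95% intervals (bars); filled circles have an adjusted p under 0.05, and green bars mark the median of genes of like transcript length. Dnmt3l and Dnmt3b lie at 1.16 and 0.67 in Dnmt1 KO against WT and at -1.34 and -0.99 between the knockouts.

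Uhrf1 (chr17:56442744-56462909, plus strand, 17 exons in its longest transcript), the partner that guides DNMT1 to replicated DNA, rose in Dnmt1 KO. Its log2 RPM in WT ran from 6.85 over a median of 7.05 to 7.20. The Dnmt1 KO libraries held 7.45, 7.20, 7.63 and 7.55, and the Dicer/Dnmt1 KO libraries 7.15, 7.25, 6.95 and 7.06. Library 1B of Dnmt1 KO was level with the highest WT library to 2 decimals, and Dicer/Dnmt1 KO lay within or next to the WT range. The rise in Dnmt1 KO was 0.41 ± 0.09 (1.33-fold, adjusted p = 0.00108), and the difference in Dicer/Dnmt1 KO was 0.05 with a 95% interval of -0.13 to 0.23. Without the libraries labelled WT 4 the rise was 0.36, still called, and the difference in Dicer/Dnmt1 KO had an adjusted p of 0.996. Between the knockouts Uhrf1 was 0.36 ± 0.10 lower in Dicer/Dnmt1 KO (adjusted p = 0.00985), with groups that overlapped. Neither call stood when A and B were averaged to 1 replicate (adjusted p = 0.0574 and 0.156), and neither stood without both libraries numbered Dnmt1 KO 2 (0.28, adjusted p = 0.0743, and -0.22, adjusted p = 0.148). The difference between the knockouts was also lost without Dicer/Dnmt1 KO 2 (-0.26, adjusted p = 0.123). The ratio of Dnmt1 to Uhrf1 per kb had a median of 1.07 in WT, 0.0967 in Dnmt1 KO, and 0.140 when Dicer1 was lost too.

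Dnmt3a, Dnmt3b and Dnmt3l rose together in Dnmt1 KO, where their libraries lay above every WT library. The margin was very narrow for Dnmt3a (5.665 against 5.657 log2 RPM) and Dnmt3b (6.935 against 6.929). How many of all tested genes have groups apart in this way was not counted, here or for the other members. Dnmt3a (chr12:3806007-3914443, plus strand) held 5.07 to 5.66 log2 RPM in WT with a median of 5.26. It held 5.67, 5.73, 6.02 and 5.98 in Dnmt1 KO and 5.82, 5.77, 5.46 and 5.70 in Dicer/Dnmt1 KO. Its lowest Dnmt1 KO library was just above the highest WT library, and 1 Dicer/Dnmt1 KO library fell inside the WT range. The rise was 0.55 ± 0.11 in Dnmt1 KO (adjusted p = 0.000863) and 0.39 ± 0.11 in Dicer/Dnmt1 KO (adjusted p = 0.00644), and the knockouts differed by -0.16 (95% interval -0.43 to 0.12). Without the libraries labelled WT 4 both rises were still called, at 0.52 and 0.36. Dnmt3a is a long transcript, and the 422 genes of like length had a median change of 0.46 in Dicer/Dnmt1 KO. With a trend of change on transcript length removed, the rise in Dnmt1 KO was 0.38 (adjusted p = 0.0187), and the value in Dicer/Dnmt1 KO turned to -0.11 (adjusted p = 0.469), while the difference between the knockouts passed the threshold (-0.49, adjusted p = 0.0129). The rise in Dicer/Dnmt1 KO also lost its call when A and B were averaged (adjusted p = 0.0619) or without Dicer/Dnmt1 KO 1 (0.28, adjusted p = 0.137), and the rise in Dnmt1 KO was lost without Dnmt1 KO 2 (0.40, adjusted p = 0.0589).

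Dnmt3b (chr2:153475186-153513466, plus strand, 24 exons) was highest in Dnmt1 KO and lowest in Dicer/Dnmt1 KO. WT libraries ran from 6.05 over a median of 6.26 to 6.93 log2 RPM. Dnmt1 KO held 6.94, 6.94, 7.25 and 7.06, and Dicer/Dnmt1 KO 6.06, 6.10, 6.01 and 6.07. The highest WT library, 1A, nearly reached the Dnmt1 KO group, whereas the 4 Dicer/Dnmt1 KO libraries lay together at or just under the lower edge of the WT range. Dnmt3b rose by 0.67 ± 0.14 in Dnmt1 KO (1.60-fold, adjusted p = 0.000796), a call lost under 2 of 42 alternatives (adjusted p up to 0.0528). Against WT it was 0.31 ± 0.14 lower in Dicer/Dnmt1 KO, which missed the threshold with all libraries (adjusted p = 0.0560) and passed it without those labelled WT 4 (-0.41, adjusted p = 0.00985) or WT 2 (-0.39, adjusted p = 0.0260). Between the knockouts it was 1.98-fold lower in Dicer/Dnmt1 KO (-0.99 ± 0.16, adjusted p = 0.000144). Of 6 tested markers of the primed state, 5 also fell in that comparison, beside 19.4% of all genes called lower. Otx2 fell by 1.44 and Pou3f1 by 1.59, with a list median of -1.31 beside -0.01 over all genes. The part of these markers in the values of Dnmt3b and Dnmt3l was not tested. The duplicated neighbour of Dnmt3b, known as Dnmt3c, was not analysed here, so reads that fit both copies leave the value of Dnmt3b uncertain.

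Dnmt3l (chr10:77504692-77526367, plus strand, 14 exons in its longest transcript) had the largest rise of the 9 members in Dnmt1 KO. Its log2 RPM in WT ran from 6.24 over a median of 6.71 to 7.03. Dnmt1 KO libraries held 7.91, 7.75, 7.84 and 7.80, and Dicer/Dnmt1 KO libraries 6.40, 6.44, 6.54 and 6.58. The 4 Dnmt1 KO libraries were thus clear of every other library, while the libraries labelled WT 4 were the highest of WT and Dicer/Dnmt1 KO stayed inside the WT range. Dnmt3l rose 2.23-fold in Dnmt1 KO (1.16 ± 0.12, adjusted p = 7.37e-07), and differed by -0.18 in Dicer/Dnmt1 KO (95% interval -0.43 to 0.07, adjusted p = 0.203), a value that passed the threshold without WT 1 (-0.30, adjusted p = 0.00998). Without WT 4 the values of Dnmt3l were 1.26, still called, and -0.08 (adjusted p = 0.516). Between the knockouts it was 2.53-fold lower in Dicer/Dnmt1 KO (-1.34 ± 0.14, adjusted p = 1.96e-06). These calls, the rise in Dnmt1 KO and the fall between the knockouts, stood under all 42 alternatives, with values of 0.93 to 1.39 and of -1.41 to -1.19. Aire, a gene on the opposite strand whose exons overlap those of Dnmt3l, had 4.89 ± 0.761 RPM in WT, 6.47 ± 1.27 in Dnmt1 KO, and 5.40 ± 0.496 when Dicer1 was lost too, beside 103 ± 19.2, 227 ± 10.5 and 89.9 ± 5.42 RPM of Dnmt3l (mean ± SD). The strand setting of the counting is not given, so reads of such partners cannot be told apart.

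**Figure D3:**
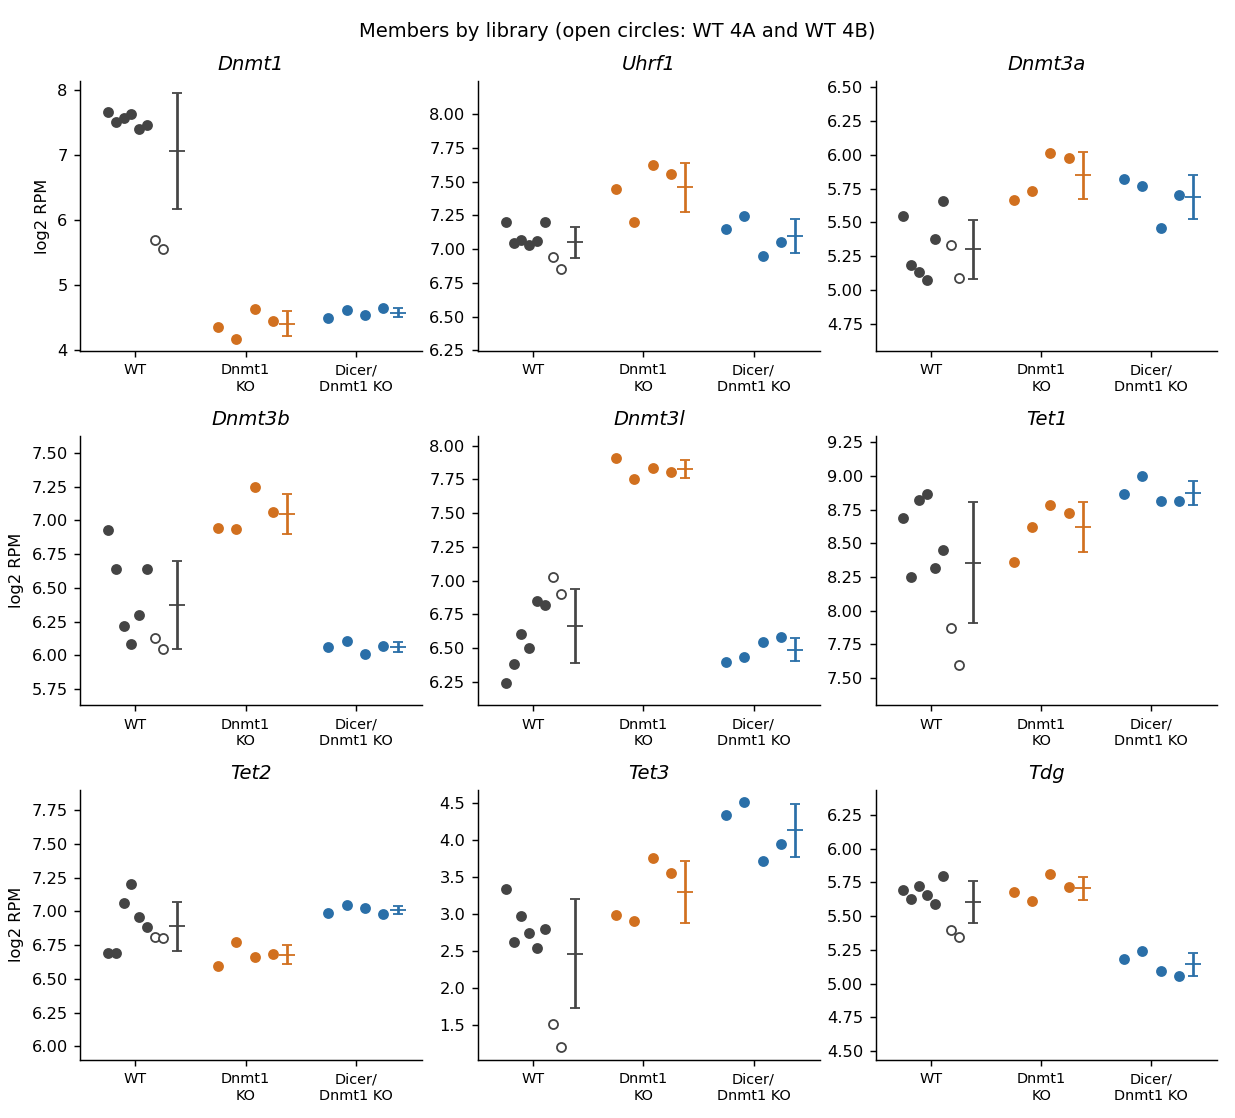
Log2 RPM of each member by library (circles) with mean ± SD at the right of each group (WT n = 8, knockouts n = 4 each); the vertical scales differ between panels and do not start at 0. Open circles are the libraries labelled WT 4A and WT 4B, which hold the lowest WT values of Dnmt1 (5.55), Tet1 (7.60) and Tet3 (1.20).

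The dioxygenases moved less evenly. Tet1 (chr10:62267318-62361866, minus strand), the main TET gene of ESCs, ran from 7.60 over 8.38 to 8.86 log2 RPM in WT. It held 8.36, 8.62, 8.78 and 8.73 in Dnmt1 KO and 8.86, 9.002, 8.81 and 8.82 in Dicer/Dnmt1 KO. The Dicer/Dnmt1 KO libraries lay at the top of the WT range, and those labelled WT 4 at its bottom. The difference in Dnmt1 KO was 0.26 (95% interval -0.13 to 0.66, adjusted p = 0.275). Tet1 rose by 0.52 ± 0.19 in Dicer/Dnmt1 KO (adjusted p = 0.0237), and by 0.31 without the libraries labelled WT 4 (adjusted p = 0.0320). Tet1 has the longest transcript of the members, and the 97 genes of like length had a median change of 0.60 in the same comparison. With the length trend removed the value was -0.13 (adjusted p = 0.197), and with A and B averaged the call was lost (adjusted p = 0.128). It was also lost without Dicer/Dnmt1 KO 1 (adjusted p = 0.158) or 2 (adjusted p = 0.0716). Between the knockouts Tet1 differed by 0.25 (95% interval -0.20 to 0.71, adjusted p = 0.383), with every Dicer/Dnmt1 KO library above every Dnmt1 KO library. The shared error of the fit includes WT, so this interval does not measure the spread of the knockouts alone. The SD of Tet1 in log2 RPM was 0.45 (WT), 0.19 (Dnmt1 KO) and 0.09 (Dicer/Dnmt1 KO). Of 42 alternatives, 1 gained a call (lowest adjusted p = 0.0404) and 2 changed sign.

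Tet2 (chr3:133126643-133207354, minus strand), whose protein lacks the CXXC domain of the other TET proteins, differed between the knockouts. In WT it ran from 6.69 over 6.85 to 7.20 log2 RPM. It held 6.60, 6.77, 6.66 and 6.69 in Dnmt1 KO and 6.99, 7.05, 7.02 and 6.98 in Dicer/Dnmt1 KO. All Dicer/Dnmt1 KO libraries were above all Dnmt1 KO libraries, with WT spanning the gap. Against WT the differences were -0.21 ± 0.09 in Dnmt1 KO (adjusted p = 0.0588) and 0.12 ± 0.09 in Dicer/Dnmt1 KO (adjusted p = 0.225). Between the knockouts Tet2 rose by 0.33 ± 0.10 in Dicer/Dnmt1 KO (1.26-fold, adjusted p = 0.0146). The median change of 518 genes of like length was 0.27, and with the length trend removed the difference was 0.01 (adjusted p = 0.949). Leaving out either number of either knockout also ended the call (adjusted p from 0.0615 to 0.0913), and against WT the difference in Dnmt1 KO passed the threshold without WT 1 (-0.27, adjusted p = 0.0104) or WT 4 (-0.24, adjusted p = 0.0358).

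Tet3 (chr6:83312367-83391672, minus strand), the least abundant member, rose in both knockouts. In WT it ran from 1.20 over 2.68 to 3.33 log2 RPM. It held 2.99, 2.91, 3.75 and 3.56 in Dnmt1 KO and 4.34, 4.51, 3.72 and 3.95 in Dicer/Dnmt1 KO. Dnmt1 KO overlapped with WT libraries 1A and 2A, and every Dicer/Dnmt1 KO library was above every WT library. The rise in Dicer/Dnmt1 KO was 3.17-fold (1.66 ± 0.32, adjusted p = 0.000236), stood under all 42 alternatives and was 1.29 without the libraries labelled WT 4 and 1.12 with the length trend removed. The rise of 0.84 ± 0.32 in Dnmt1 KO (adjusted p = 0.0434) was less firm: it lost its call under 24 of 42 alternatives and was 0.47 without the libraries labelled WT 4 (adjusted p = 0.0518) and 0.48 without Dnmt1 KO 2 (adjusted p = 0.461). Between the knockouts the difference was 0.83 ± 0.37 (adjusted p = 0.0856), and without the libraries labelled WT 4, whose spread enters the shared error, it passed the threshold (adjusted p = 0.00352).

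Tdg (chr10:82092573-82113544, plus strand, 10 exons in its longest transcript), the glycosylase that excises the oxidised bases, fell in Dicer/Dnmt1 KO. In WT it ran from 5.35 over 5.64 to 5.80 log2 RPM. It held 5.68, 5.62, 5.82 and 5.72 in Dnmt1 KO and 5.18, 5.24, 5.10 and 5.06 in Dicer/Dnmt1 KO. Every Dicer/Dnmt1 KO library was below every other library. Tdg fell by 0.46 ± 0.08 against WT (1.38-fold, adjusted p = 0.000124) and by 0.56 ± 0.10 against Dnmt1 KO (1.48-fold, adjusted p = 0.000213), while its difference between Dnmt1 KO and WT was 0.10 (95% interval -0.07 to 0.28, adjusted p = 0.332). The fall against WT lost its call under 1 of 42 alternatives, and that against Dnmt1 KO under 2 (adjusted p up to 0.0984). Without the libraries labelled WT 4 Tdg was at -0.54 in Dicer/Dnmt1 KO, still called, and at 0.026 in Dnmt1 KO. Genes of like length had a median change of 0.07 and 0.00 in the former pair of comparisons. Exons of Tdg overlap those of Glt8d2 on the other strand, which was at 0.112 to 0.356 RPM in the group means, beside 35.4 ± 2.03 RPM of Tdg in Dicer/Dnmt1 KO.

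Some member values also changed with the WT libraries used as reference. Against WT 1 and 2 only, Tet3 in Dnmt1 KO was at 0.38 (adjusted p = 0.147), Tet1 was at -0.03 in Dnmt1 KO, and 0.22 when Dicer1 was lost too (adjusted p = 0.142), and Dnmt3b fell in Dicer/Dnmt1 KO (-0.41, adjusted p = 0.0205). Against WT 3 and 4 only, Dnmt3l fell in Dicer/Dnmt1 KO (-0.41, adjusted p = 0.000122). The rise of Dnmt3l and Dnmt3b in Dnmt1 KO and the fall of Tdg in Dicer/Dnmt1 KO kept their call against WT 1 and 2 only and against WT 3 and 4 only.

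**Figure D4:**
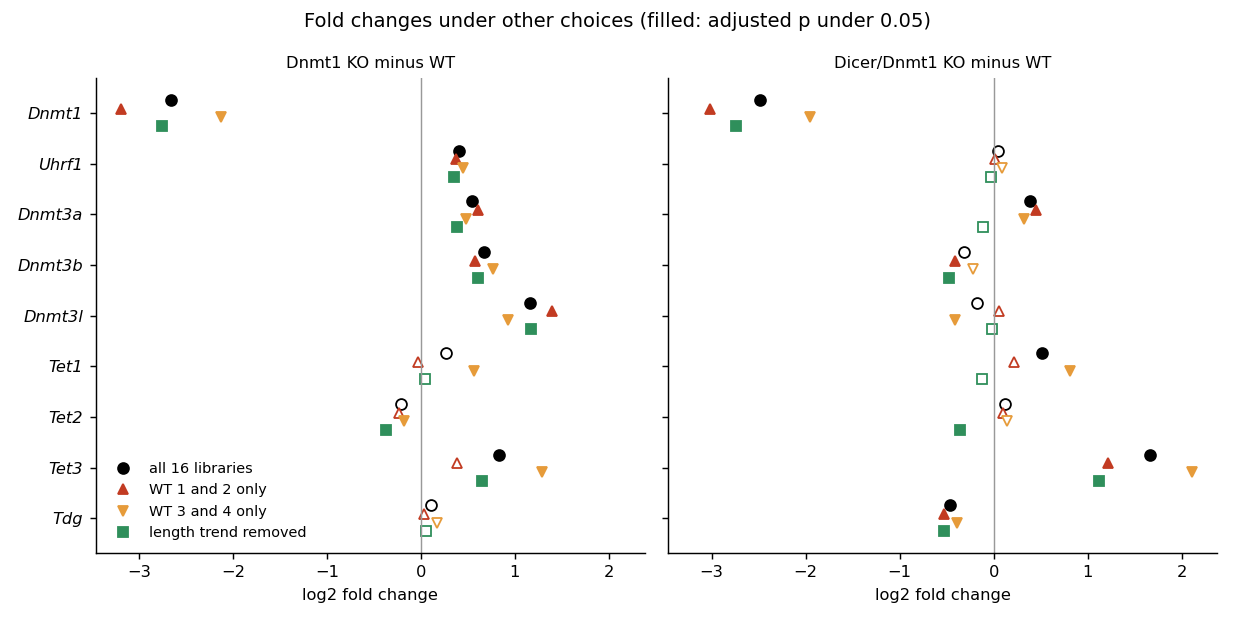
Log2 fold changes of the 9 members against WT with all 16 libraries (circles), WT 1 and 2 only (upward triangles), WT 3 and 4 only (downward triangles) and a transcript length trend removed (squares); filled symbols have an adjusted p under 0.05. Dnmt1, Dnmt3l in Dnmt1 KO, Tet3 in Dicer/Dnmt1 KO and Tdg in Dicer/Dnmt1 KO stay filled, while Dnmt3a in Dicer/Dnmt1 KO turns from 0.39 to -0.11 without the length trend.

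Regulators of the Dnmt3 genes changed in Dicer/Dnmt1 KO. Rbl2, the pocket protein named above, held 2.09 to 2.74 log2 RPM in WT, 2.22 to 2.66 in Dnmt1 KO and 3.61 to 3.87 in Dicer/Dnmt1 KO, and rose 2.42-fold against WT (1.27 ± 0.13, adjusted p = 2.01e-07). Prdm14, a repressor of Dnmt3b and Dnmt3l in ground-state ESCs, held 2.38 to 3.55, 2.35 to 3.00 and 4.13 to 4.32, and rose 2.52-fold (1.33 ± 0.18, adjusted p = 8.70e-06). For both genes the Dicer/Dnmt1 KO libraries lay above all others. Against Dnmt1 KO, Rbl2 was at 1.22 and Prdm14 at 1.53 on the log2 scale, beside -0.99 for Dnmt3b and -1.34 for Dnmt3l. Against WT neither Dnmt3b (-0.31) nor Dnmt3l (-0.18) was called, and Dnmt3a was called higher (0.39). Dnmt3b was called lower under 11 of 42 alternatives, such as without WT 4 (-0.41). Dnmt3l was called lower under 2 and changed sign under 3. With the length trend removed, Dnmt3a turned to -0.11 and lost its call. Rbl1, a paralogue of Rbl2, fell by 0.36 in Dnmt1 KO (adjusted p = 0.00585) and rose by 0.23 in Dicer/Dnmt1 KO (adjusted p = 0.0452), a call lost under 29 of 42 alternatives, such as without WT 4 (0.19, adjusted p = 0.0922) or with the length trend removed (adjusted p = 0.905). Its fall was lost without Dnmt1 KO 2 (-0.26, adjusted p = 0.158). Without the libraries labelled WT 4, Rbl2 was at 1.17 and Prdm14 at 1.28 against WT, both still called. Against Dnmt1 KO all 3 rose, beside 16.9% of all genes called higher. Whether these levels bear on the Dnmt3 genes was not tested.

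Of 9 readers of methylated CpGs tested, 1 was called in Dnmt1 KO, upwards, beside 41.0% of all genes called, and 4 rose and 1 fell in Dicer/Dnmt1 KO against WT, beside 61.9% of all genes, so that neither count stood above the background. The zinc finger readers Zbtb38 and Zbtb4 rose 2.55-fold (adjusted p = 1.15e-09) and 1.73-fold (adjusted p = 0.000732) there. With the length trend removed, Zbtb38 was at 0.96 and Zbtb4 at 0.37, both still called. In Dnmt1 KO the gene that rose was Mbd3, a subunit of the NuRD complex (1.44-fold, adjusted p = 0.00150), a call lost without Dnmt1 KO 2 (0.31, adjusted p = 0.115). Between the knockouts 4 rose and 1 fell, beside 16.9% higher and 19.4% lower over all genes.

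Base excision repair, which completes TDG's work, held 11 tested genes, of which none rose. In each comparison against WT 4 fell, beside 17.5% and 30.1% of all genes called lower, the latter near the share in the list, with medians of -0.17 in both, beside 0.04 and 0.02 over all genes. Neil2, a glycosylase that acts after TDG, fell by 0.85 in Dnmt1 KO (adjusted p = 0.000631) and by 0.75 in Dicer/Dnmt1 KO (adjusted p = 0.000913). Polb, the polymerase that fills the gap, fell by 0.44 (adjusted p = 0.00651) and 0.59 (adjusted p = 0.000385), of which the first was lost without Dnmt1 KO 2 (-0.22, adjusted p = 0.257). Between the knockouts 2 fell, near the 19.4% of all genes called lower. Ung was 1 of them, down by 0.36, a call that was lost when A and B were averaged (adjusted p = 0.132).

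The methyl donor cycle, which makes S-adenosylmethionine, had 11 tested genes, of which 3 rose in Dnmt1 KO and 3 rose and 3 fell in Dicer/Dnmt1 KO against WT. These counts lay near the shares over all genes, 23.5% higher in Dnmt1 KO and 61.9% called in Dicer/Dnmt1 KO. Mat2a, the enzyme that makes the donor, rose 1.48-fold in Dnmt1 KO (adjusted p = 0.000461), and Mtrr, which keeps methionine synthase active, also rose 1.48-fold (adjusted p = 1.41e-06). Shmt1, a serine hydroxymethyltransferase of folate metabolism, fell by 0.68 in Dicer/Dnmt1 KO (adjusted p = 2.95e-06). Between the knockouts 2 rose and 3 fell, beside 16.9% higher and 19.4% lower over all genes. Ahcy, which clears the spent donor, was among those that fell (-0.58, adjusted p = 0.000229).

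Recruiters and cofactors of methylation numbered 12, of which 4 rose and 3 fell in Dnmt1 KO, 3 rose and 5 fell in Dicer/Dnmt1 KO, and 1 rose and 5 fell between the knockouts. Over all genes 41.0%, 61.9% and 36.3% were called, and the count in Dicer/Dnmt1 KO against WT was near that share. Ehmt2, a histone H3 lysine methyltransferase, and Trim28, a corepressor of zinc finger proteins, rose 1.44- and 1.37-fold in Dnmt1 KO (adjusted p = 4.66e-06 and 0.000149). Hells, a remodeller needed for full methylation, was 1.58-fold lower in Dicer/Dnmt1 KO than in Dnmt1 KO (adjusted p = 3.00e-05), as was Trim28 by 1.43-fold (adjusted p = 0.000232). Zfp57, which protects imprints, fell by 0.55 in Dicer/Dnmt1 KO against WT (adjusted p = 0.000821).

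Partners and cofactor suppliers of the TET enzymes held 7 tested genes, of which 2 fell in Dnmt1 KO, 3 rose in Dicer/Dnmt1 KO against WT (Sall1, Sall4 and Cxxc5), and 3 rose against the other knockout (Sall1, Idh2 and Cxxc5), beside 17.5% of all genes lower, 31.9% higher and 16.9% higher. Ogt, the sugar transferase that binds TET proteins, and Idh2, a mitochondrial source of their cosubstrate, fell by 0.41 (adjusted p = 0.00185) and 0.62 (adjusted p = 0.000197) in Dnmt1 KO, and the fall of Ogt was lost without Dnmt1 KO 2 (-0.35, adjusted p = 0.0544). Sall1, a zinc finger gene, rose 2.70-fold in Dicer/Dnmt1 KO against WT (adjusted p = 0.000170), and Cxxc5, of the CXXC family, 1.36-fold (adjusted p = 0.00377). With libraries left out the rise of Sall1 was 1.13 to 1.63 on the log2 scale, still called. The rise of Sall4 (0.60) lost its call under 15 of 42 alternatives, and that of Cxxc5 under 5. Of 13 S phase genes, a group with which Dnmt1 and Uhrf1 are normally coexpressed, 5 rose in Dnmt1 KO, 2 fell in Dicer/Dnmt1 KO against WT, and 6 fell between the knockouts, beside 23.5% higher, 30.1% lower and 19.4% lower over all genes, so that the count in Dicer/Dnmt1 KO against WT lay below the background. Ccne1, the G1/S cyclin, rose 1.45-fold in Dnmt1 KO (adjusted p = 2.33e-06) and was 1.57-fold lower in Dicer/Dnmt1 KO than in Dnmt1 KO (adjusted p = 3.44e-06).

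**Figure D5:**
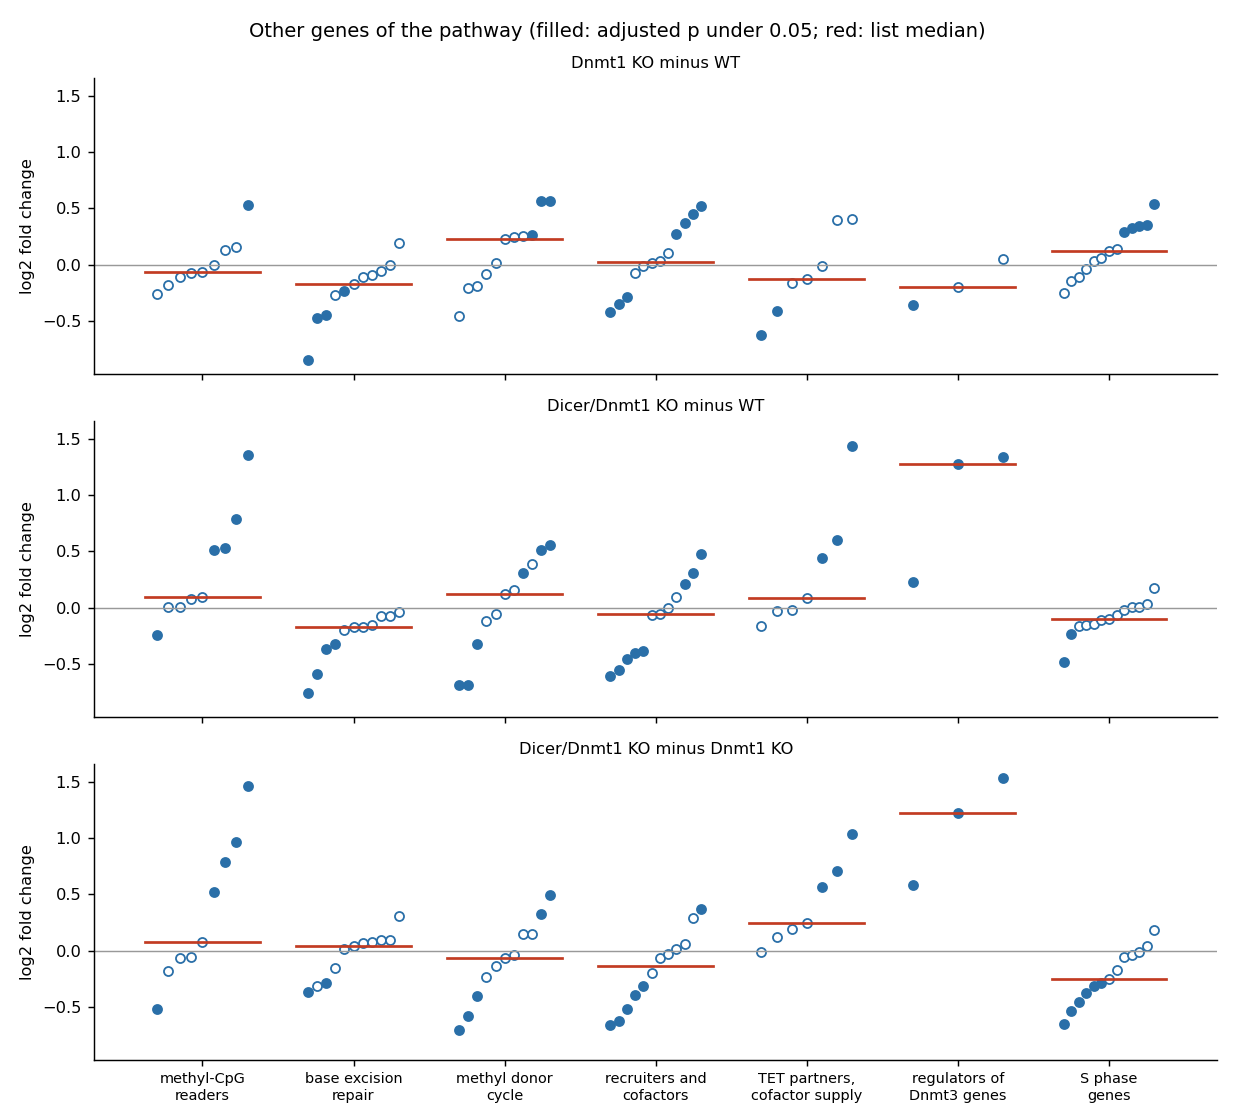
Log2 fold changes of the tested genes of 7 lists around the members in the 3 comparisons; each circle is 1 gene, filled where the adjusted p is under 0.05, and red lines are list medians. The 3 regulators of Dnmt3 genes lie above 0 in both comparisons of Dicer/Dnmt1 KO, with medians of 1.27 and 1.22, and no base excision repair gene is filled above 0.

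Across the 16 libraries the genes whose log2 RPM followed each member most closely were listed by Pearson's r, as a description, since the libraries share groups, depth and the length trend. For Dnmt3b they were Bcl6b, Amot and Enc1 (r from 0.954 to 0.959), and for Dnmt3l Id1, Heatr3 and Itpk1 (0.958 to 0.961). Dnmt3a was followed by Phlda1, Cops6 and Ccdc85a (0.928 to 0.940), Dnmt1 by Arhgef10, Clk2 and Hjurp (0.956 to 0.964) and Uhrf1 by Nol9, Pdcd11 and Ncl (0.960 to 0.967). Tet1 ran with Pdcd6ip, Fbxo42 and Lmtk2 (0.964 to 0.971), Tet2 with Kit, Esrrb and Jam2 (0.915 to 0.927) and Tet3 with Tpcn1, Helz and Mark2 (0.989 for each). Tdg ran with Pabpc4, Dicer1 and Spry4 (0.944 to 0.977), so that the deleted gene Dicer1 was among the 3 closest to a member that fell where Dicer1 was lost.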

How the data were processed

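Total RNA-seq libraries (paired ends, stranded, depleted of ribosomal RNA) were trimmed with Trim Galore and mapped with TopHat, and reads with a mapping quality under 20 were discarded, as the methods give it. The versions in the submitters' processing notes are Trim Galore 0.3.5 and TopHat2 2.0.11. The deposited values are log2 RPM per gene, which the authors made in SeqMonk. The notes name builds GRCm38 and NCBIM37, and 26068 of 26127 genes had the coordinates of GENCODE M1 on NCBIM37. A further 35 value columns were not used.

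Genes above 1 RPM in at least 4 libraries (12892) were tested with limma 3.58.1 in R 4.3.3, with 1 fit over the 3 groups and an intensity trend. Benjamini-Hochberg adjusted p-values over all tested genes were called under 0.05. Errors of fold changes are SE, and 95% intervals come from the same fit. The spread of the WT libraries therefore also enters the comparison between the knockouts. The fit was checked on simulated data. Promoters and miRNAs came from RefSeq tables of build GRCm38.p6. From each pathway list, up to 3 called genes with the largest change per comparison could be named, and for each member the 3 genes with the highest Pearson r. Some genes that this rule names are not reported here. The members and lists were chosen with earlier results of these data known.

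The labels do not say that libraries came from separate cultures, so p-values measure the spread between libraries, which may be technical. A and B of 1 number were closer to each other than to other libraries (consensus correlation 0.667). Deviations of libraries with the same number and letter correlated between groups at -0.418 to 0.372, so the numbers were not taken to pair the samples. Alternatives changed the libraries, blocks, scaling, filter, pseudocount and length trend. A floor of 3 reads was 0.0571 to 0.0954 RPM, which covers counting error only.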

Additional observations from a re-analysis of the deposited data

How the results depend on the processing

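Over 42 alternatives the 9 members gave 1134 values, of which 1006 kept direction and side of the threshold, 74 lost a call, 34 gained one and 20 changed sign. The number of members called in Dnmt1 KO against WT (6) was 4 with A and B averaged or with letter B only. With the number as a random block the count was 5. It was 3 with letter A only, 2 with a 2-fold minimum, and 3 to 7 with libraries left out. In Dicer/Dnmt1 KO against WT (5) it was 3 with A and B averaged, letter A only or the number as a random block, 2 with the 2-fold minimum, and 3 to 7 with libraries left out. Between the knockouts (5) it was 3 with A and B averaged, letter A only or the random block. It was also 3 with the length trend removed together with averaging (an alternative chosen after seeing the data). It was 2 with letter B only, 1 with the 2-fold minimum, and 3 to 6 with libraries left out. With only the 2 knockouts in the fit it was 7. Averaging A and B lowered the genes called from 5289 to 2288, from 7985 to 5134 and from 4682 to 1225; letter A only gave 1833, 4002 and 951, letter B only 1610, 4813 and 667, the 2-fold minimum 901, 1650 and 589, and averaging with the length trend removed 2983, 5293 and 1646. The random block gave 2723 in Dnmt1 KO against WT and 2109 between the knockouts. Without Dnmt1 KO 2 the first count was 2759, and without Dnmt1 KO 1 or Dicer/Dnmt1 KO 1 the last was 2932 or 2604. The causes were not tested.

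With the replicate number as a block, as with WT 1 and 2 only, Tet1 in Dnmt1 KO against WT turned to -0.035, Dicer1 to -0.068 and Dnmt3l in Dicer/Dnmt1 KO against WT to 0.056. The block, which the pairing check did not favour, also ended the call of Tet3 in Dnmt1 KO (0.38) and gave 6 members called there. With the length trend removed, with or without averaging, values in Dicer/Dnmt1 KO against WT turned for Uhrf1 (-0.025), Dnmt3a (-0.11), Tet1 (-0.13), Tet2 (-0.36) and Nsd1 (-0.12), and Tet1 between the knockouts turned to -0.17. Uhrf1 in Dicer/Dnmt1 KO against WT was also -0.019 with letter A only, -0.015 with median centring, and -0.047 to 0.15 with libraries left out; Dicer1 in Dnmt1 KO was -0.0060 to 0.35. Depth limits Tet3 most, with 77 reads in its lowest library.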
